A study of Mus musculus with 110 samples.

Results

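RNA of the pulldown labelled astrocyte in the n_ZFP_a_Rpl set was measured in R6/2 and in NCAR mice. NCAR is the labels' name for the comparison genotype. The RNA bound to HA-tagged ribosomes (RiboTag) was immunoprecipitated (the IP), and the members are the 7 of the series' 110 libraries that hold this IP under the control vector, picked by their labelled cell type, fraction and condition. The 3 RD libraries are R6/2 with the AAV Delta, the control vector of a study that lowers mutant huntingtin with repressors of the zinc-finger (ZFP) type. The 4 ND libraries are NCAR with the same Delta AAV. Both groups share the tagged ribosome, the Delta AAV and the strain entry R6/2, and they differ in genotype alone as far as the labels go. The labels give no tissue, age, sex, driver of the tag or cell type targeted by the vector, and do not say whether a numbered replicate is 1 animal or a pool. The p-values therefore measure the spread between these libraries.

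R6/2 mice carry a transgene with the first exon of human mutant HTT and are a fast-progressing model of Huntington's disease, in which striatal projection neurons lose the transcripts that mark their identity. Astrocytes clear glutamate and potassium from the extracellular space, supply neurons with cholesterol in lipoproteins, store glycogen and make L-serine, and on injury switch on a reactive programme. A RiboTag pulldown enriches the RNA on the ribosomes of 1 cell type, and RNA of other cells that sticks to the beads is measured with it.

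The libraries held 43835971 to 44302625 counts in RD and 42926495 to 49859753 counts in ND. On a principal component analysis of the 7 libraries, the first component held 57.1% of the variance and separated RD from ND with no overlap. The labelled cell type was checked against marker lists by comparing the ND IP with the ND Input, the RNA of the whole tissue sample. All 22 astrocyte markers were higher in the IP (median log2 difference 1.80), beside 35.5% of all genes tested that were higher and 36.7% that were lower. All 14 oligodendrocyte, 12 oligodendrocyte precursor and 15 microglia markers were lower there, with medians of -1.08, -1.47 and -5.89, as were 14 of 16 endothelial and mural markers (-4.36). Of the neuronal lists, 12 of 16 pan-neuronal markers (0.30) and 13 of 15 interneuron markers (1.28) were higher in the IP than in the Input, and of 30 striatal projection neuron genes 3 were higher and 16 lower (-0.23). Astrocyte and neuronal transcripts were thus both measured in the pulldown, and the part of neuronal RNA in any one change was not tested.

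**Figure D1:**
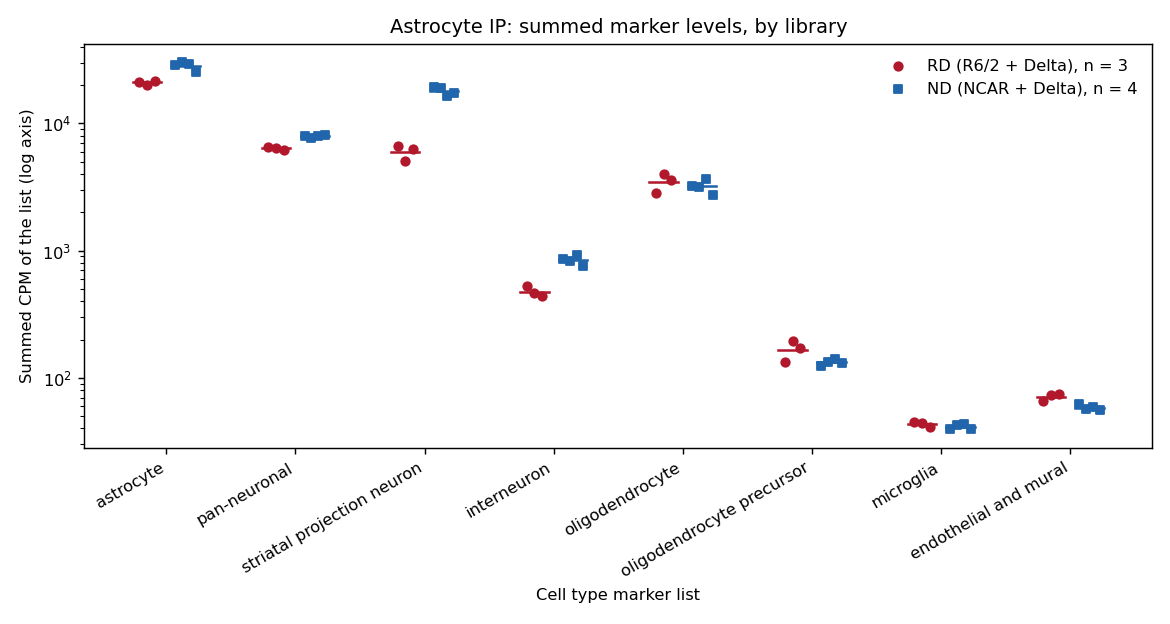
Summed CPM, counts scaled to library size (log axis), of 8 cell type marker lists in each astrocyte IP library, RD circles left of ND squares, with a line at each group's mean. The striatal projection neuron sums of the 3 RD libraries lie at 5067 to 6626 CPM, below those of the 4 ND libraries at 16367 to 19249 CPM, and the microglia sums overlap.

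Between RD and ND, 3141 genes rose (20.6% of the 15246 tested) and 3766 fell (24.7%), at an adjusted p under 0.05 by edgeR's quasi-likelihood test. At least 2-fold changes numbered 209 that rose (1.37%) and 702 that fell (4.6%), and at least 4-fold changes 27 (0.177%) and 143 (0.938%). The median log2 change over all genes tested was -0.000514. The RD and ND libraries did not overlap for 7133 genes (46.8%). Levels are given as CPM after TMM scaling, the edgeR correction for library composition, and changes as log2 of RD over ND with a standard error (SE) derived from the test statistic.

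Rankings of the largest changes passed over provisional symbols (Gm, Rik, -ps, AW, BC, LOC) and sex-linked genes. Among the other genes with a mean of at least 5 CPM and no overlap, the highest rise was that of Tpx2, which organises the mitotic spindle. It had 12.5, 12.3 and 12.8 CPM in RD, against 2.41, 1.93, 2.60 and 2.80 CPM in ND, a 5.16-fold rise (log2 change 2.36 ± 0.11, adjusted p = 1.5e-09). The 3 RD libraries lie close together and far above all ND libraries. Enpp6, a choline phosphodiesterase of newly forming oligodendrocytes, had 14.2, 17.9 and 18.6 CPM in RD, against 5.35, 5.25, 3.38 and 4.69 CPM in ND (log2 change 1.86 ± 0.17, adjusted p = 5.8e-07). Its ND level was lower in the IP than in the Input (log2 difference -1.80), as for the oligodendrocyte lists. Cp, ceruloplasmin, a copper-carrying ferroxidase, had 10.1, 9.64 and 11.8 CPM in RD, against 3.38, 2.60, 3.43 and 3.17 CPM in ND, and every RD library was above every ND library (log2 change 1.74 ± 0.14, adjusted p = 1.5e-07). Abcg2, an efflux transporter of the blood-brain barrier, had 9.24, 9.53 and 9.004 CPM in RD, against 3.18, 2.67, 3.43 and 2.30 CPM in ND (log2 change 1.68 ± 0.17, adjusted p = 1.3e-06). Cp and Abcg2 were also lower in the ND IP than in the ND Input, with log2 differences of -1.83 and -1.83. Col5a2, a fibrillar collagen chain, rose by 1.61 ± 0.25 on the log2 scale. The Polycomb-group protein Sfmbt2 rose by 1.26 ± 0.16. Some of the calls with the smallest p-values were of modest size. Polr2a, the largest subunit of RNA polymerase II, had 217, 217 and 227 CPM in RD, against 109, 127, 112 and 115 CPM in ND, with no overlap (log2 change 0.93 ± 0.05, adjusted p = 8.4e-09). Fkbp14, a peptidyl-prolyl isomerase of the endoplasmic reticulum, rose by 0.86 ± 0.05.

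Among the genes that fell, Abi3bp, a secreted matrix protein, was the lowest by the same ranking, at 0.802, 1.09 and 0.944 CPM in RD, against 17.7, 12.7, 14.8 and 13.9 CPM in ND, a fall to 0.0638 of the ND mean (log2 change -3.96 ± 0.21, adjusted p = 3.9e-09). Cd4, known as a T helper cell co-receptor, had 5.28, 2.95 and 4.47 CPM in RD, against 57.6, 65.4, 48.3 and 50.3 CPM in ND (log2 change -3.71 ± 0.21, adjusted p = 1.5e-08). Ier5l, an immediate-early-response-like gene, had 3.90, 3.35 and 3.92 CPM in RD, against 19.5, 21.5, 20.04 and 20.95 CPM in ND (log2 change -2.46 ± 0.08, adjusted p = 4.9e-11). Groups did not overlap for any of these. The other genes that fell most are largely known from neurons. Scn4b, a sodium channel beta subunit of striatal projection neurons, had 144, 94.8 and 134 CPM in RD, against 1611, 1684, 1259.9 and 1287 CPM in ND (log2 change -3.56 ± 0.18, adjusted p = 7.6e-09). Ryr1, a calcium release channel, changed by -3.47 ± 0.23, the potassium channel Kcnh4 by -3.24 ± 0.14, the histamine H3 receptor Hrh3 by -2.75 ± 0.15 and Lrrc10b by -2.45 ± 0.16 on the log2 scale. Penk, the enkephalin precursor of indirect-pathway neurons, had 299, 244 and 298 CPM in RD, against 1332, 1338, 1316 and 1221 CPM in ND (ratio of means 0.215, adjusted p = 1.9e-10). Pthlh, a peptide hormone found in striatal interneurons, changed by -2.49 ± 0.13, and the pro-apoptotic Bcl-2 family member Hrk by -2.42 ± 0.12.

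**Figure D2:**
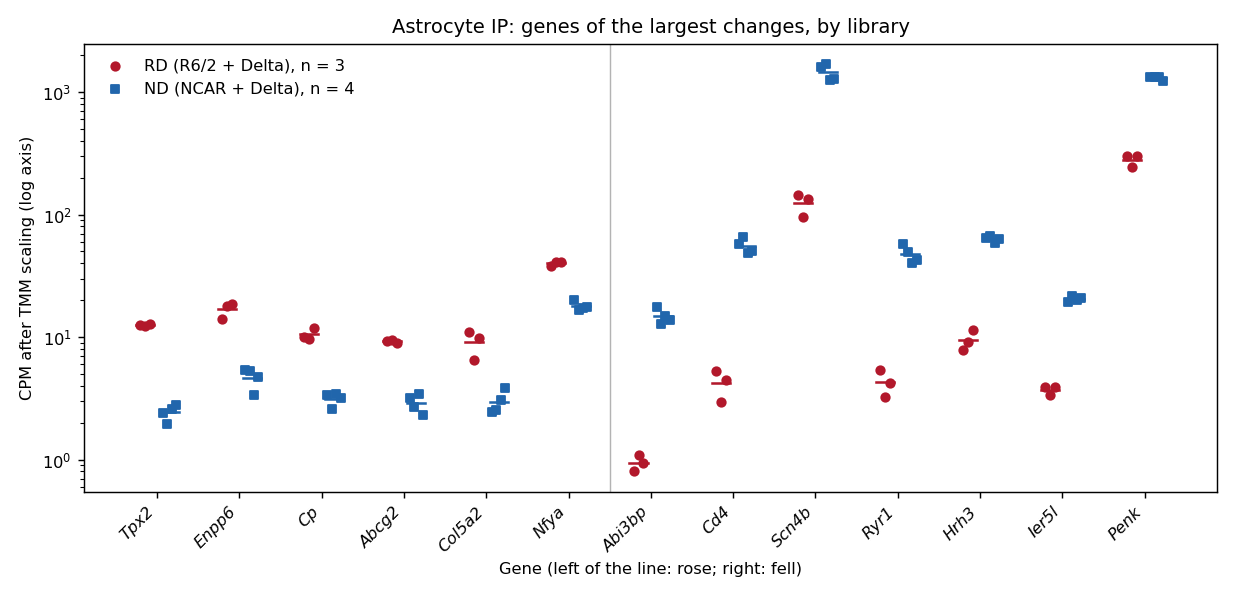
CPM (log axis) of 13 genes in each astrocyte IP library, RD circles left of ND squares, with a line at each group's mean. Genes left of the vertical line rose and genes right of it fell, and in none of the 13 do the groups overlap.

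Genes of striatal projection neurons fell nearly throughout. Of the 30 striatal projection neuron genes, 29 fell and 0 rose (median log2 change -1.50, from -3.56 to -0.26), beside 24.7% of all genes that fell. Their summed level was 5067 to 6626 CPM in the RD libraries and 16367 to 19249 CPM in the ND libraries. Fewer of these cells and less RNA per cell cannot be told apart in bulk RNA. Of 15 interneuron markers 13 fell (86.7%) and 0 rose (median -1.02). Crh, corticotropin-releasing hormone, had 0.190, 0.167 and 0.189 CPM in RD, against 2.38, 2.92, 2.31 and 3.23 CPM in ND (log2 change -3.88 ± 0.41, adjusted p = 2.3e-06). Chat, the acetylcholine-synthesising enzyme of cholinergic interneurons, had 31.2, 25.7 and 25.8 CPM in RD, against 60.7, 67.8, 74.5 and 52.2 CPM in ND, with no overlap (log2 change -1.21 ± 0.12, adjusted p = 1.4e-06). Vip, a neuropeptide, fell to 0.441 of the ND mean. Of 16 pan-neuronal markers 7 fell (43.8%) and 2 rose (12.5%), with a median of -0.20. Snap25, a SNARE of the presynapse, had 1069, 1021 and 984 CPM in RD, against 1577, 1507, 1566 and 1530.2 CPM in ND, a change of -0.59 ± 0.04. Nefm, a neurofilament subunit, changed by -1.25 ± 0.18 and Rbfox3, the NeuN antigen, by -0.72 ± 0.08. Syp, synaptophysin, was slightly higher in RD at 611, 634 and 598 CPM in RD, against 545, 532, 534 and 551 CPM in ND (log2 change 0.18 ± 0.04, adjusted p = 0.0013). The striatal projection neuron genes also fell in the Input, all 30 (median -1.59), and 29 of the 30 fell in the IP of the neuron set n_ZFP_n_Rpl (-1.50). The test of a difference between the IP and Input changes called 0 of the 30. With each IP paired to its Input it called 2 higher in the IP and 0 lower.

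Of 35 potassium channels 30 fell (85.7%) and 0 rose (median -0.64), of 34 glutamate and GABA receptors 21 fell (61.8%) and 0 rose (-0.42), and of 27 synaptic vesicle and release genes 18 fell (66.7%) and 1 rose (-0.51), beside 24.7% of all genes that fell and 20.6% that rose. Kcnh3 changed by -1.84 ± 0.13, the A-type channel partner Kcnip2 by -1.66 ± 0.12 and the inward rectifier Kcnj4 by -1.51 ± 0.14 on the log2 scale. Gabrd, the delta subunit of extrasynaptic GABA-A receptors, had 40.2, 32.9 and 38.0 CPM in RD, against 113 to 133 CPM in ND, all RD libraries below all ND libraries (log2 change -1.76 ± 0.10, adjusted p = 7.9e-09). Grm4, a presynaptic metabotropic glutamate receptor, changed by -1.19 ± 0.12. Syt2, a calcium sensor for release, had 25.8, 43.5 and 22.1 CPM in RD, against 116, 115, 109 and 97.1 CPM in ND, and Cplx2, complexin 2, changed by -1.24 ± 0.09. Of 22 immediate early genes, which neurons switch on with activity, 12 fell (54.5%) and 0 rose (median -0.90). Egr3 had 40.1, 24.1 and 32.9 CPM in RD, against 87.2, 87.8, 77.2 and 105 CPM in ND (log2 change -1.47 ± 0.15, adjusted p = 3.4e-06), and Bdnf, a neurotrophin, changed by -1.51 ± 0.32.

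Of the 22 astrocyte markers 2 rose (9.09%), 9 fell (40.9%) and 11 were not called, beside 20.6% and 24.7% of all genes, with a median of -0.16 and changes between -0.63 and 0.31. Their summed level was 20163 to 21707 CPM in the RD libraries and 25329.7 to 30199 CPM in the ND libraries, with no overlap. A large part of these sums, and of the gap between the groups, came from Slc1a2 alone. Slc1a2, the main glutamate transporter of astrocytes, had 10169.5, 9164 and 10205 CPM in RD, against 15724, 16712, 15320.00 and 13102 CPM in ND (log2 change -0.63 ± 0.10, adjusted p = 1.3e-04). Aldoc, the astrocyte aldolase, had 1308, 1344 and 1466 CPM in RD, against 2060.4, 2105, 2179 and 2008 CPM in ND (log2 change -0.61 ± 0.07, adjusted p = 7.1e-06). Atp1b2, a beta subunit of the sodium pump, changed by -0.55 ± 0.08 and Glul, glutamine synthetase, by -0.37 ± 0.07. In each of these 4 genes every RD library was below every ND library. Aldh1l1, a folate enzyme, changed by -0.27 ± 0.08 (SE, adjusted p = 0.012), a call that was lost without RD replicate 2 (-0.23, adjusted p = 0.056). Both genes that rose did so by small steps: S100b, a calcium-binding protein, had 292, 286 and 284 CPM in RD, against 234, 233, 258 and 201 CPM in ND (log2 change 0.31 ± 0.09, adjusted p = 0.012), and Mlc1, a membrane protein of astrocyte endfeet, had 523, 552 and 597 CPM in RD, against 438, 449, 498 and 432 CPM in ND (log2 change 0.30 ± 0.06, adjusted p = 0.0011). Markers not called include the glutamate transporter Slc1a3 at -0.07 ± 0.07, the endfoot water channel Aqp4 at -0.03 ± 0.10, the glial transcription factor Sox9 at 0.00 ± 0.10 and the gap junction protein Gja1 at -0.11 ± 0.07. Gja1 passed the threshold without ND replicate 4 (-0.19, adjusted p = 0.0070). Gfap, the intermediate filament that rises in classical reactive gliosis, had 401, 602 and 508 CPM in RD, against 420.2, 529.6, 539 and 566 CPM in ND, and the groups overlap (log2 change -0.03 ± 0.17, adjusted p = 0.91). In the Input 15 of the 22 markers fell and 1 rose (median -0.32), beside 24.7% and 24.4% of all genes there. The test of a difference between the 2 changes called 3 of the 22 higher in the IP and 1 lower (median difference 0.23). With each IP paired to its Input it called 7 higher and 1 lower.

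A class of genes found mainly in this pulldown was defined without the RD and ND libraries, from the NZ libraries (NCAR with the ZFP) as at least 2-fold higher in the astrocyte IP than both in the Input and in the IP of the neuron set n_ZFP_n_Rpl. The class held 608 tested genes, of which 87 rose (14.3%) and 157 fell (25.8%), with a median log2 change of -0.06. The share that fell is near the 24.7% of all genes, and the share that rose is below their 20.6%. Gpx8, a peroxidase of the endoplasmic reticulum, had 10.8, 10.1 and 11.2 CPM in RD, against 4.81, 5.78, 5.06 and 4.67 CPM in ND, the highest rise of the class by the same ranking as above (log2 change 1.08 ± 0.10, adjusted p = 6.4e-07). The flavin monooxygenase Fmo1 changed by 0.82 ± 0.14, the membrane metalloprotease Mmp14 by 0.67 ± 0.12, the retinoid-binding protein Rlbp1 by 0.61 ± 0.12 and podoplanin, Pdpn, by 0.56 ± 0.09. At the other end, Etnppl, which degrades phosphoethanolamine, had 9.54, 21.6 and 12.1 CPM in RD, against 62.7, 45.3, 57.9 and 61.2 CPM in ND (log2 change -1.98 ± 0.29, adjusted p = 1.2e-04), and Aldh1a1, a retinaldehyde dehydrogenase, had 54.9, 42.3 and 43.4 CPM in RD, against 119, 149.7, 151 and 86.8 CPM in ND (log2 change -1.44 ± 0.22, adjusted p = 1.5e-04). In neither gene did the groups overlap. Sfrp5, a secreted Wnt antagonist, changed by -1.31 ± 0.25, and Kirrel2, an adhesion molecule of the immunoglobulin superfamily, by -1.07 ± 0.13. The lowest genes of the class also include transcripts known from neurons: the dopamine-synthesising enzyme Th at -1.28 ± 0.10, the choline transporter Slc5a7 at -1.11 ± 0.09, the vesicular acetylcholine transporter Slc18a3 at -1.10 ± 0.11, the substance P receptor Tacr1 at -1.10 ± 0.08 and the receptor tyrosine kinase Kit at -1.31 ± 0.05. These 5 were 1.39 to 1.58 higher in the ND IP than in the ND Input, within the range of the astrocyte markers, so enrichment in the pulldown does not by itself place a gene in astrocytes.

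Of 19 genes for handling of glutamate and GABA 7 fell (36.8%) and 1 rose (5.26%), with a median of -0.11, and of 27 for water, ions and coupling 12 fell (44.4%) and 4 rose (14.8%), with a median of -0.29, beside 24.7% of all genes that fell and 20.6% that rose. Slc6a6, the taurine transporter, had 108, 109.7 and 117 CPM in RD, against 218, 231, 189 and 215 CPM in ND (log2 change -0.93 ± 0.07, adjusted p = 5.0e-08), while its ND level was lower in the IP than in the Input (-0.59). Slc4a4, the sodium bicarbonate cotransporter, changed by -0.32 ± 0.06 and the leak potassium channel Kcnk2 by -0.82 ± 0.09. Kcnj10, the Kir4.1 channel through which astrocytes take up potassium, had 383, 447 and 388 CPM in RD, against 627, 394, 524 and 457 CPM in ND. The groups overlap through ND replicate 2, and the change of -0.30 ± 0.15 (SE, adjusted p = 0.13) was not called. Without that library it was -0.40 (adjusted p = 0.043). Slc12a2, the NKCC1 cotransporter, rose at 145, 204 and 166 CPM in RD, against 103, 103, 122 and 94.7 CPM in ND (log2 change 0.70 ± 0.12, adjusted p = 2.9e-04), and it was lower in the ND IP than in the ND Input (-0.64).

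Of 38 receptors and calcium signalling genes 17 fell (44.7%) and 3 rose (7.89%), with a median of -0.23, beside 24.7% of all genes that fell and 20.6% that rose. Several of the largest falls were of genes that neurons express strongly and that the pulldown did not enrich. Rgs4, a regulator of G-protein signalling, had 236, 189 and 209.8 CPM in RD, against 912, 869, 796 and 756 CPM in ND (log2 change -1.98 ± 0.10, adjusted p = 3.9e-09), and the IP3 receptor Itpr1 had 1246, 941 and 1155 CPM in RD, against 2913, 2862, 2427 and 2543 CPM in ND (log2 change -1.27 ± 0.11, adjusted p = 2.9e-07). Their ND levels in the IP and in the Input were nearly equal, with log2 differences of 0.01 and 0.01. Itpr2, the IP3 receptor of astrocytes, was enriched (0.83) and was not called at -0.21 ± 0.09 (SE, adjusted p = 0.072), though it passed without RD replicate 1 (-0.27, adjusted p = 0.044). Of receptors that the pulldown enriched, the alpha-1A adrenergic receptor Adra1a changed by -0.66 ± 0.07 and the metabotropic glutamate receptor Grm3 by -0.42 ± 0.08. The thrombin receptor F2r rose by 0.69 ± 0.15 and the lysophosphatidic acid receptor Lpar1 by 0.64 ± 0.14.

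**Figure D3:**
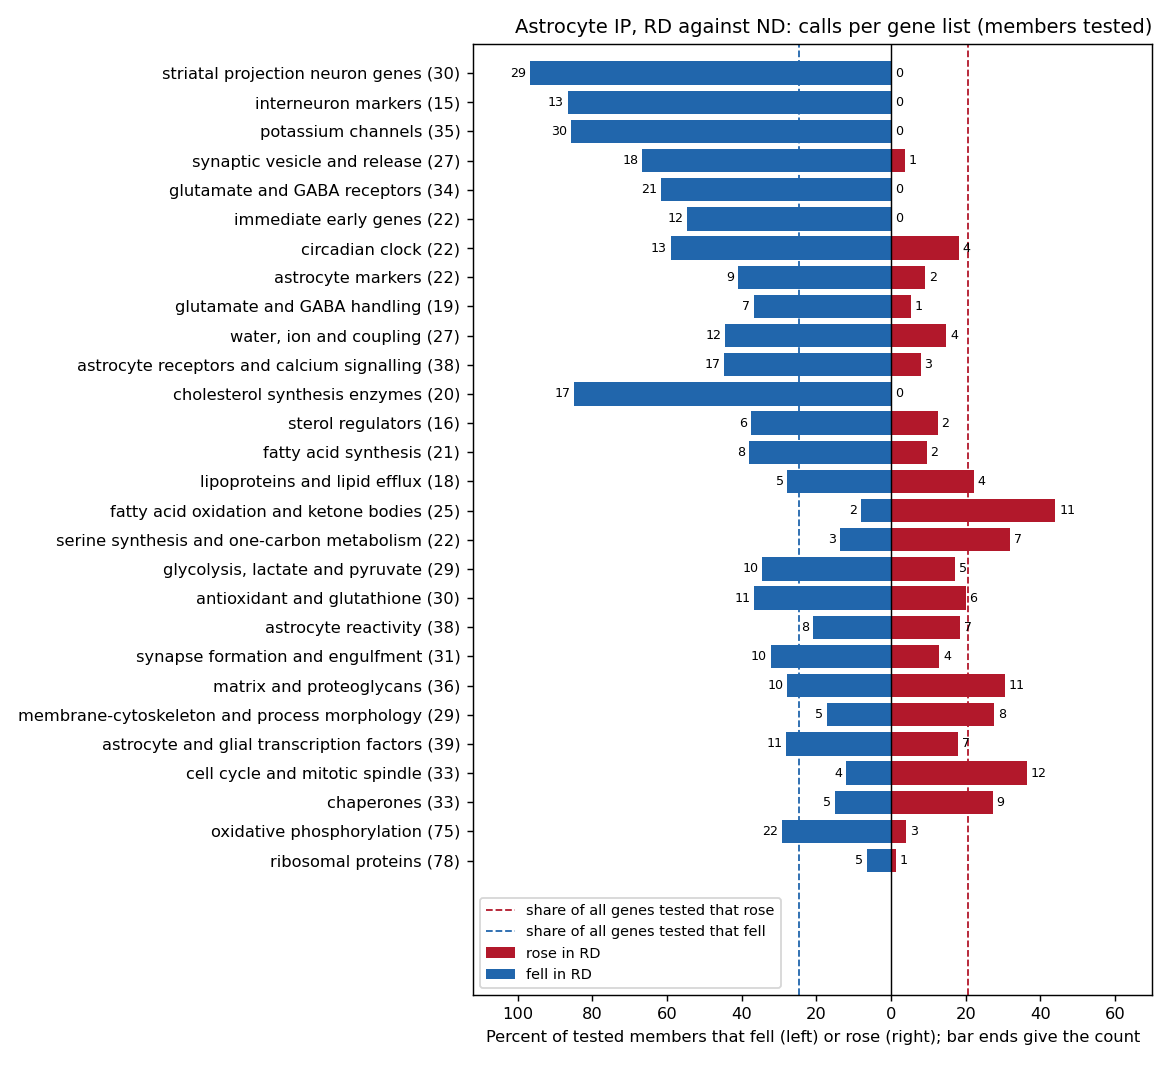
Percent of the tested members of 28 gene lists that fell (blue, left) or rose (red, right) in the astrocyte IP, with the counts at the bar ends, the number tested in brackets, and dashed lines at the shares of all genes tested, 24.7% and 20.6%. Of the cholesterol synthesis enzymes 17 fell, and of the fatty acid oxidation genes 11 rose.

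The enzymes of cholesterol synthesis mostly fell. The pathway converts acetyl-CoA to mevalonate, squalene and then sterols, and in cells low in sterol the factor SREBP2 (Srebf2) switches its genes on together with Insig1. Of the 20 enzymes 17 fell (85.0%) and 0 rose (median -0.46), beside 24.7% of all genes that fell, and Nsdhl, Ebp and Hsd17b7 were not called. In ND, 19 of the 20 were higher in the IP than in the Input (median log2 difference 0.69). Their summed level was 855 to 941 CPM in the RD libraries and 1261 to 1423 CPM in the ND libraries, with no overlap. At the head of the pathway Hmgcs1, HMG-CoA synthase, had 218, 201 and 232 CPM in RD, against 379.96, 362, 363 and 332 CPM in ND (log2 change -0.72 ± 0.08, adjusted p = 6.2e-06). Idi1, the isopentenyl isomerase, had 2.51, 2.24 and 2.43 CPM in RD, against 3.98, 4.01, 4.55 and 3.70 CPM in ND (log2 change -0.76 ± 0.13, adjusted p = 2.0e-04). At the sterol end Msmo1, a methylsterol oxidase, had 70.7, 59.6 and 73.4 CPM in RD, against 133, 132, 151 and 117 CPM in ND (log2 change -0.97 ± 0.10, adjusted p = 1.3e-06), the lowest of the list. Squalene synthase, Fdft1, changed by -0.85 ± 0.07. For each of these 4 enzymes all RD libraries lay below all ND libraries. Hsd17b7 had 25.3, 25.8 and 27.5 CPM in RD, against 25.4, 25.9, 23.8 and 23.8 CPM in ND, and its groups overlap. In the Input 13 of the 20 enzymes fell and 0 rose (median -0.26), beside 24.7% of all genes that fell there. The test of a difference between the change in the IP and that in the Input called 0 of the 20 without pairing the libraries. With each IP paired to its Input it called Mvk, Mvd and Tm7sf2 lower in the IP, 3 of the 20, and 0 higher. In the MG IP, another astrocyte pulldown of the series, 13 of the 20 fell and 0 rose (median -0.59), beside 16.2% and 17.4% of all genes.

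Srebf2 had 125, 116 and 134 CPM in RD, against 174, 198, 178 and 180.04 CPM in ND (log2 change -0.55 ± 0.06, adjusted p = 3.1e-06). Insig1, which holds SREBPs in the endoplasmic reticulum, had 45.02, 38.1 and 37.3 CPM in RD, against 65.7, 93.99, 91.00 and 90.5 CPM in ND (log2 change -1.09 ± 0.13, adjusted p = 1.4e-05). In neither did the groups overlap. Srebf1, which serves fatty acid synthesis, rose at 288, 348 and 348 CPM in RD, against 248, 246, 254 and 209 CPM in ND (log2 change 0.45 ± 0.09, adjusted p = 0.0012). Over the list of sterol regulators, 6 of 16 fell (37.5%) and 2 rose (12.5%), with a median of -0.04, beside 24.7% of all genes that fell and 20.6% that rose. For efflux, Abca1, the cholesterol exporter that loads apolipoproteins, had 519.5, 583 and 524 CPM in RD, against 295, 309.7, 303 and 258 CPM in ND (log2 change 0.89 ± 0.07, adjusted p = 1.9e-07), with all RD libraries above all ND libraries. Abca7, a related transporter, rose by 1.00 ± 0.09 and the lipocalin Apod by 1.17 ± 0.18. Apod was lower in the ND IP than in the ND Input (-0.98). Apoe, the main apolipoprotein of astrocytes, changed by -0.24 ± 0.07 and Lcat, which esterifies cholesterol in lipoproteins, by -0.86 ± 0.10. Of 21 fatty acid synthesis genes 8 fell (38.1%) and 2 rose (9.52%), with a median of -0.15: the citrate lyase Acly changed by -0.70 ± 0.06, the citrate carrier Slc25a1 by -0.71 ± 0.06, the desaturase Scd1 by -0.69 ± 0.12 and the fatty acid binding protein Fabp7, higher in RD, by 0.70 ± 0.13.

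**Figure D4:**
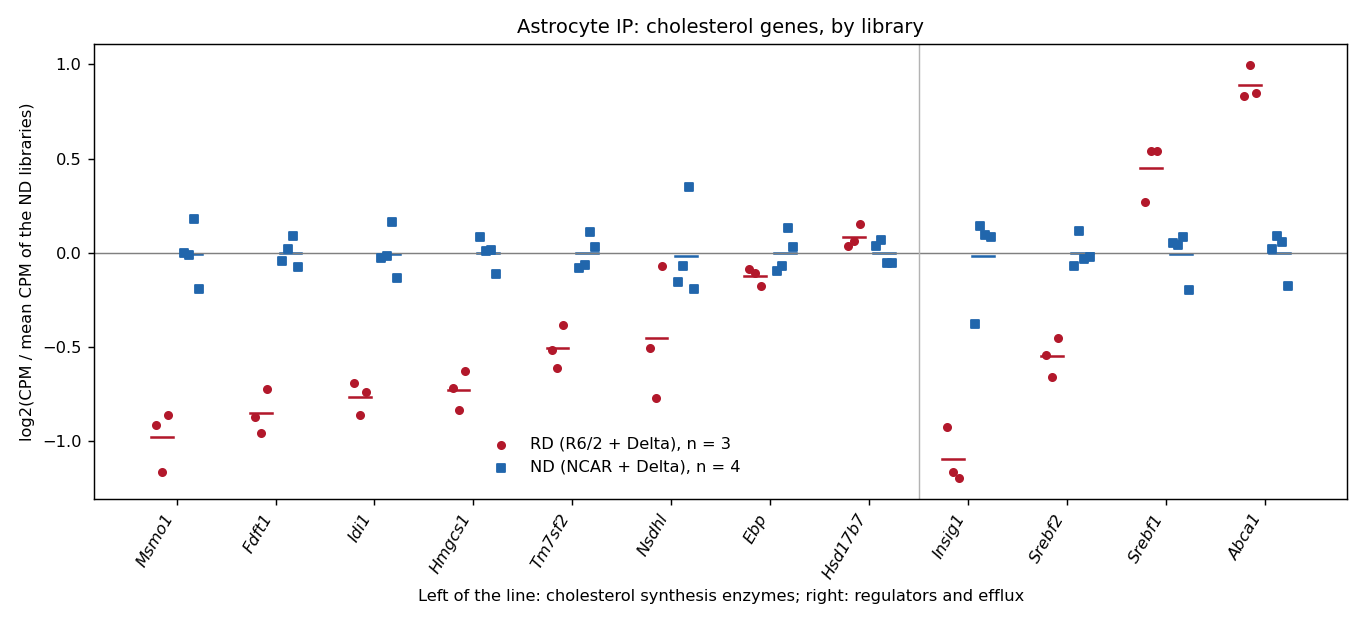
Level of each gene in each astrocyte IP library as log2 of its CPM over the mean CPM of the ND libraries, RD circles left of ND squares, for 8 of the 20 cholesterol synthesis enzymes (left of the line) and 4 genes of sterol regulation and efflux (right). RD libraries lie below ND libraries for Msmo1, Fdft1, Idi1, Hmgcs1, Tm7sf2, Insig1 and Srebf2, and above them for Srebf1 and Abca1.

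The promoters of the enzymes are shown because the list moved together. RefSeq promoters of GRCm38.p6, the 250 bases before the transcript start, were found for 15 of the 20 enzymes. The letters CCAAT, the box bound by the factor NF-Y, stood on either strand in 14 of the 15 (93.3%), against 37.5% of the 27025 genes with a promoter. The letters CACCCCAC, the core of the sterol element to which SREBPs bind, stood on either strand in 2 of the 15 (13.3%) and in 2.98% of all genes. Of 18 circadian clock genes with a promoter, 12 held CCAAT (66.7%) and 2 held CACCCCAC (11.1%), so higher shares are not particular to the enzymes. The shares of all genes cover every gene with a promoter, not only the genes tested. A match describes letters in this window, not binding. Capitals mark CCAAT or its reverse complement in 3 enzymes of the list.
Hmgcs1 (chr13:119690101-119690350, plus strand): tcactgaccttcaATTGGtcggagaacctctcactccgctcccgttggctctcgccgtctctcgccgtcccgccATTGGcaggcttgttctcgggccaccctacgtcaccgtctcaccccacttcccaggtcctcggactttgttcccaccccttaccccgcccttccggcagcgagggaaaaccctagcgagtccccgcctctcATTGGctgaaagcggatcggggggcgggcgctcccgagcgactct
Idi1 (chr13:8885356-8885605, plus strand): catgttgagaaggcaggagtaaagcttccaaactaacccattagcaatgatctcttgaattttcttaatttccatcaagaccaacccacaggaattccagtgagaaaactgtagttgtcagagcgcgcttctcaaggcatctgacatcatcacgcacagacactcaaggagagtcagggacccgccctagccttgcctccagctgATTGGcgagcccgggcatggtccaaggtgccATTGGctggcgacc
Msmo1 (chr8:64733579-64733828, minus strand): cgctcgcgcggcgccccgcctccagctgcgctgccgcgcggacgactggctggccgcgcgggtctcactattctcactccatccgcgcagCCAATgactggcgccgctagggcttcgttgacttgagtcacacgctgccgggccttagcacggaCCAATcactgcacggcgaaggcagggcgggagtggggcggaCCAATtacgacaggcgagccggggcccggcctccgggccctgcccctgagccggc
Hmgcs1 and Msmo1 hold 3 matches each and Idi1 holds 2. The box also stood in the promoters of Nsdhl, Ebp and Hsd17b7, the enzymes that were not called. The only enzyme with a promoter but without the box was among those that fell. Nfya, a subunit of NF-Y, was among the genes that rose most, at 38.1, 41.1 and 41.2 CPM in RD, against 19.9, 16.6, 17.2 and 17.5 CPM in ND, with no overlap (log2 change 1.17 ± 0.08, adjusted p = 4.5e-08). A link between this rise and the enzymes was not tested.

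Of 25 genes for fatty acid oxidation and ketone bodies 11 rose (44.0%), 2 fell (8.0%) and 12 were not called (median 0.15), beside 20.6% of all genes that rose and 24.7% that fell. In ND, 24 of the 25 were higher in the IP than in the Input (median 1.10). Acadm, the medium-chain acyl-CoA dehydrogenase, had 79.1, 75.7 and 73.9 CPM in RD, against 65.6, 64.97, 64.97 and 58.2 CPM in ND (log2 change 0.27 ± 0.05, adjusted p = 6.3e-04), and Hadha, of the trifunctional protein, had 167, 163 and 163 CPM in RD, against 134, 138, 143 and 126 CPM in ND (log2 change 0.28 ± 0.06, adjusted p = 7.4e-04). For both, every RD library lay above every ND library by a narrow margin. Etfdh changed by 0.31 ± 0.06 and Cpt2 by 0.28 ± 0.08, whereas Cpt1a, the entry step into mitochondria, was not called at 0.13 ± 0.08. Of 22 genes of serine synthesis and one-carbon metabolism 7 rose (31.8%) and 3 fell (13.6%), with a median of 0.14. Psat1, the phosphoserine aminotransferase, had 245, 265 and 281 CPM in RD, against 193, 201, 219 and 182 CPM in ND (log2 change 0.41 ± 0.07, adjusted p = 3.0e-04). The mitochondrial folate enzymes Mthfd2 and Shmt2 changed by 0.68 ± 0.12 and 0.57 ± 0.08. Phgdh, the first enzyme of serine synthesis, was not called at 0.19 ± 0.08 (SE, adjusted p = 0.072) and passed without ND replicate 2 (0.25, adjusted p = 0.021).

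Of 29 glycolysis, lactate and pyruvate genes 10 fell (34.5%) and 5 rose (17.2%), with a median of -0.07, beside 24.7% of all genes that fell and 20.6% that rose. Pdk1, a kinase that inhibits pyruvate dehydrogenase, had 69.98, 71.1 and 73.6 CPM in RD, against 49.7, 48.6, 48.3 and 47.3 CPM in ND, without overlap (log2 change 0.56 ± 0.04, adjusted p = 2.5e-08). Of 75 nuclear genes of oxidative phosphorylation 22 fell (29.3%) and 3 rose (4.0%) with a median of -0.06, and in the Input 6 fell and 11 rose of 74. The test of a difference between these changes called 0 of the 75, and 0 with each IP paired to its Input. Ndufb4, of complex I, changed by -0.31 ± 0.09 in the IP. Of 30 antioxidant and glutathione genes 11 fell (36.7%) and 6 rose. Mt1, a metallothionein that binds zinc and copper, had 125, 139 and 139 CPM in RD, against 194, 204, 207 and 191 CPM in ND (log2 change -0.57 ± 0.05, adjusted p = 4.2e-07), and its neighbour Mt2 changed by -0.62 ± 0.07. Hmox1, heme oxygenase, changed by -0.64 ± 0.14. Of 22 glycogen genes 4 fell (18.2%) and 3 rose (13.6%). Shares of a list near those of all genes are no result about the list.

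Of 38 tested members of the reactivity list 7 rose and 8 fell, with a median of -0.08, shares of 18.4% and 21.1% beside 20.6% and 24.7% of all genes. Vim, vimentin, an intermediate filament, had 99.1, 91.9 and 121 CPM in RD, against 44.1, 51.5, 54.8 and 49.4 CPM in ND, all RD libraries above all ND libraries (log2 change 1.06 ± 0.18, adjusted p = 3.1e-04). Cp is a member of this list too. Emp1, a membrane protein, rose by 0.79 ± 0.22. Fbln5, an elastic fibre protein, had 1.75, 1.78 and 2.27 CPM in RD, against 6.61, 7.94, 6.72 and 6.004 CPM in ND (log2 change -1.82 ± 0.16, adjusted p = 2.6e-07). H2-D1, a class I histocompatibility molecule, had 28.6, 6.10 and 82.97 CPM in RD, against 12.7, 19.9, 53.03 and 27.1 CPM in ND. The groups overlap, with a wide spread within each, and no difference was detectable (log2 change 0.48 ± 0.89, adjusted p = 0.69). Of 24 interferon response genes 1 rose (4.17%) and 0 fell, and of 24 complement and antigen presentation genes 2 fell (8.33%) and 0 rose.

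Of 36 matrix and proteoglycan genes 11 rose (30.6%) and 10 fell (27.8%), with a median of 0.04, beside 20.6% of all genes that rose and 24.7% that fell. Col11a1, a fibrillar collagen chain, had 5.51, 5.23 and 5.52 CPM in RD, against 1.56, 1.63, 1.12 and 2.63 CPM in ND (log2 change 1.64 ± 0.21, adjusted p = 1.3e-05), and Emilin2, an elastic-fibre glycoprotein, changed by 1.30 ± 0.16. Both were lower in the ND IP than in the ND Input (-1.55 and -1.06). Bcan, brevican, a proteoglycan of perineuronal nets, had 420.3, 437 and 462 CPM in RD, against 607, 609.9, 599.96 and 535 CPM in ND (log2 change -0.42 ± 0.07, adjusted p = 1.2e-04). Of 31 genes for synapse formation and engulfment 10 fell (32.3%) and 4 rose (12.9%), with a median of -0.11. Thbs1, thrombospondin 1, which promotes synapse formation, had 6.06, 3.37 and 7.62 CPM in RD, against 2.21, 1.08, 1.39 and 2.36 CPM in ND (log2 change 1.69 ± 0.33, adjusted p = 6.9e-04). Sparc, a matrix protein that opposes synapse formation by its relative hevin, had 100.1, 184 and 131 CPM in RD, against 356, 284, 339 and 326 CPM in ND (log2 change -1.24 ± 0.24, adjusted p = 0.0011). Mertk, a receptor for engulfment, changed by -0.52 ± 0.12. Of 29 genes for the cytoskeleton and process morphology 8 rose (27.6%) and 5 fell (17.2%).

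Among 39 glial transcription factors 11 fell (28.2%) and 7 rose (17.9%), with a median of -0.07, near the 24.7% and 20.6% of all genes. Klf9, induced by glucocorticoid, had 175, 154 and 196 CPM in RD, against 319, 337, 299 and 299.6 CPM in ND (log2 change -0.84 ± 0.07, adjusted p = 2.4e-07). Id4, an inhibitor of helix-loop-helix factors, changed by -0.66 ± 0.08. Sox2, a factor of neural progenitors and astrocytes, had 107, 94.4 and 104 CPM in RD, against 74.8, 73.8, 80.8 and 80.4 CPM in ND (log2 change 0.39 ± 0.07, adjusted p = 4.5e-04), and Pax6 rose by 0.49 ± 0.07. Gli3, the Hedgehog effector, was not called at -0.07 ± 0.09. Among signalling lists, 14 of 30 FGF and ERK feedback genes fell (46.7%) and 2 rose (6.67%), and 14 of 24 neurotrophic factors and receptors fell (58.3%) and 2 rose (8.33%). Of 33 BMP and TGF-beta genes 12 fell (36.4%) and 6 rose (18.2%), and of 39 Wnt genes 11 fell (28.2%) and 4 rose (10.3%). Of 28 Notch genes 9 fell (32.1%) and 5 rose (17.9%), and of 16 Hedgehog genes 4 rose and 3 fell (18.8%). Inhba, an activin subunit, had 1.22, 0.523 and 0.923 CPM in RD, against 6.71, 6.03, 5.38 and 3.93 CPM in ND (log2 change -2.63 ± 0.23, adjusted p = 2.8e-07), and its extracellular antagonist Fst, follistatin, had 1.01, 0.753 and 0.756 CPM in RD, against 6.05, 5.16, 5.15 and 3.76 CPM in ND (log2 change -2.58 ± 0.21, adjusted p = 1.6e-07). Hey1, a Notch target, changed by -0.78 ± 0.07, the ERK phosphatase Dusp6 by -0.78 ± 0.19, the Wnt effector Tcf7 by -1.79 ± 0.22 and the neurotrophin receptor Ngfr by -1.57 ± 0.38.

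Clock genes, which form a feedback loop of CLOCK-BMAL1 activators and their E-box-driven repressors, fell in 13 (59.1%) and rose in 4 (18.2%) of 22, with a median of -0.39, beside 24.7% of all genes that fell and 20.6% that rose. Sampling time is not in the labels used here, and its part in these changes was not tested. Ciart, a repressor of the loop, had 5.93, 6.25 and 6.17 CPM in RD, against 26.02, 27.8, 17.7 and 21.4 CPM in ND (log2 change -1.92 ± 0.17, adjusted p = 5.4e-07). Nr1d1, the REV-ERB-alpha repressor, had 29.3, 26.4 and 26.4 CPM in RD, against 63.9, 70.1, 56.3 and 55.7 CPM in ND (log2 change -1.17 ± 0.08, adjusted p = 1.6e-08), and the output factor Dbp had 104, 91.6 and 109.8 CPM in RD, against 238, 219, 195 and 209 CPM in ND. Npas2, a CLOCK paralogue, changed by -1.38 ± 0.13, and Cry1, a repressor that peaks late in the cycle, rose by 0.25 ± 0.07. In none of these 5 did the groups overlap. The E-box CACGTG stood in the promoters of 5 of the 18 clock genes found in RefSeq (27.8%), against 6.86% of all genes. Cry1, which rose, is 1 of the 5 and holds 1 match. Ciart, the lowest clock gene, holds 3 matches, shown in capitals.
Ciart (chr3:95882229-95882478, minus strand): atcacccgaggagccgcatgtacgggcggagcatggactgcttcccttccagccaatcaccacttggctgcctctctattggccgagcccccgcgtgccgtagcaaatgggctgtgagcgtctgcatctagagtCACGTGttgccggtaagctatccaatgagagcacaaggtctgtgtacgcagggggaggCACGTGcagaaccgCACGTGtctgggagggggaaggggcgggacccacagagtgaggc

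Of 33 cell cycle and spindle genes 12 rose (36.4%) and 4 fell (12.1%), with a median of 0.50, beside 20.6% of all genes that rose and 24.7% that fell. Tpx2 led them, and Cdkn1c, the p57 inhibitor of cyclin-dependent kinases, had 2.36, 3.03 and 2.90 CPM in RD, against 0.850, 0.806, 0.672 and 0.637 CPM in ND (log2 change 1.90 ± 0.19, adjusted p = 1.3e-06). Of 17 tested homeobox and patterning factors 7 rose (41.2%) and 2 fell (11.8%), with a median of 0.27, out of 71 on the list, most of which did not pass the filter on low counts. Nkx2-2, a factor of the oligodendrocyte lineage, had 2.43, 2.76 and 2.64 CPM in RD, against 1.65, 1.84, 1.68 and 1.42 CPM in ND (log2 change 0.66 ± 0.16, adjusted p = 0.0029). Of 33 chaperones 9 rose (27.3%) and 5 fell (15.2%). Hspa1a, an inducible HSP70, had 4.07, 3.70 and 3.11 CPM in RD, against 1.90, 1.57, 1.25 and 2.41 CPM in ND (log2 change 1.02 ± 0.21, adjusted p = 9.7e-04), though it has a near-identical copy, Hspa1b (1.43 ± 0.40), and reads of the pair may be shared. Hspa5, the BiP chaperone of the endoplasmic reticulum, had 538, 480.3 and 473 CPM in RD, against 343, 335, 367 and 355 CPM in ND (log2 change 0.51 ± 0.06, adjusted p = 3.5e-06). Of 27 genes of the integrated stress response 7 fell (25.9%) and 4 rose (14.8%), and the stress factor Nupr1 had 1.22, 0.962 and 1.30 CPM in RD, against 5.10, 7.27, 5.38 and 3.68 CPM in ND (log2 change -2.20 ± 0.21, adjusted p = 7.1e-07). Markers of other cells were followed as well. Of 14 oligodendrocyte markers 5 rose (35.7%) and 1 fell (7.14%): Ermn, ermin, had 77.7, 103 and 88.2 CPM in RD, against 55.3, 55.7, 73.3 and 51.9 CPM in ND, a change of 0.60 ± 0.14. Summed, they reached 2859 to 3966 CPM in the RD libraries and 2737 to 3624 CPM in the ND libraries, and the groups overlap. In the Input 0 of the 14 rose and 6 fell (median -0.17), beside 24.4% and 24.7% of all genes. The test of a difference between the IP and Input changes called 0 without pairing. With pairing it called 8 higher in the IP and 0 lower. In the neuron IP 7 of the 14 rose and 0 fell, beside 25.2% and 26.2% of all genes, and in the MG IP 1 rose and 0 fell. Of 12 oligodendrocyte precursor markers, Enpp6 among them, 5 rose (41.7%) and 2 fell (16.7%), with a median of 0.42. Their summed level was 133 to 196 CPM in the RD libraries and 125 to 142 CPM in the ND libraries, and the groups overlap. Microglia markers summed to 41.2 to 45.3 CPM in the RD libraries and 39.3 to 43.5 CPM in the ND libraries. Endothelial and mural markers summed to 65.5 to 74.2 CPM in the RD libraries and 55.6 to 62.4 CPM in the ND libraries, without overlap, and of 16 members 4 rose and 2 fell (12.5%). Vtn, vitronectin of pericytes, had 4.62, 9.12 and 8.27 CPM in RD, against 2.24, 2.53, 2.40 and 3.62 CPM in ND, and was far lower in the ND IP than in the ND Input (-4.03). The part of these admixed transcripts in the other changes was not tested.

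Of 78 ribosomal protein genes 1 rose (1.28%) and 5 fell (6.41%), with a median of 0.02, beside 20.6% and 24.7% of all genes. Rpl22, whose product is the protein tagged in RiboTag mice, had 210.4, 177 and 188 CPM in RD, against 278, 392, 408 and 328 CPM in ND (log2 change -0.88 ± 0.16, adjusted p = 5.5e-04). Its count may include reads of the tagged allele. Endogenous Htt, the mouse huntingtin gene, had 404, 409.7 and 407 CPM in RD, against 436, 425, 414 and 423 CPM in ND. All RD libraries lay just below all ND libraries, but the change of -0.06 ± 0.04 (SE, adjusted p = 0.26) was not called.

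The change in the pulldown was set against that in the tissue RNA. In the Input 3851 genes rose (24.4%) and 3891 fell (24.7%) of 15780 tested. A test of the difference between the changes called 219 genes higher in the IP (1.35%) and 84 lower (0.517%) of 16255. Libraries that share condition and number varied together across the 2 fractions, and with that pairing as a block the counts were 647 and 286. With only the RD and ND libraries, 84 were higher, of which 83 are among the 219. Between 42 and 80 genes were lower with 1 IP library left out: 42 without RD replicate 3, 50 without RD replicate 1 and 55 without ND replicate 4. Trank1, a large repeat protein, had 260.2, 245 and 259.7 CPM in RD, against 176, 206, 192 and 244 CPM in ND. Its Input values were 469, 442 and 479 CPM in the RD Inputs, against 954, 1036, 1094 and 1052 CPM in the ND Inputs, so RD was higher in the IP and lower in the tissue (difference of log2 changes 1.51 ± 0.11, adjusted p = 4.2e-09). The actin crosslinker Flna changed by 0.62 ± 0.10 in the IP and by -0.36 ± 0.07 in the Input. Gli3 fell in the Input (-0.88 ± 0.06) and was not called in the IP (difference 0.85 ± 0.11, adjusted p = 4.3e-05). Cp rose more in the IP than in the tissue, where the change was 0.39 ± 0.07, and so did Abcg2 (0.58 ± 0.07) and Enpp6 (0.84 ± 0.15). The Enpp6 difference of 1.06 ± 0.24 was lost without RD replicate 3 (0.98, adjusted p = 0.055). Of the astrocyte transport genes, Slc4a4 fell less in the IP than in the Input (difference 0.49 ± 0.07, adjusted p = 2.5e-04). In the other direction Ggact, a gamma-glutamylamine cyclotransferase, rose less in the IP (0.60 ± 0.08) than in the Input (1.48 ± 0.07). Camk2n2, an inhibitor of CaM kinase II, rose in the Input alone (1.04 ± 0.13, difference -0.97 ± 0.19, adjusted p = 0.0068), and Crabp1, a retinoic acid carrier, fell in the IP (-0.80 ± 0.07) with an Input change of -0.02 ± 0.15.

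**Figure D5:**
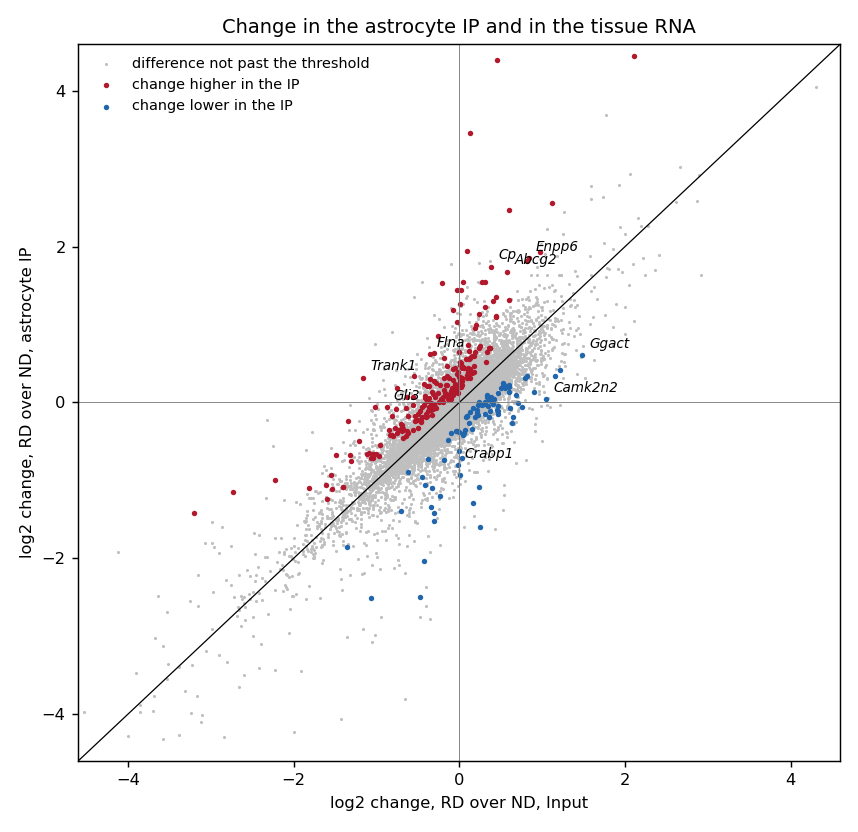
The log2 change of RD over ND in the astrocyte IP (vertical) against that in the Input (horizontal) for 14982 genes tested in both, of which 14 lie outside the axes. By the test without pairing, red points (219) changed more positively in the IP and blue points (84) more negatively. The diagonal marks equal change.

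The other astrocyte pulldown of the series, the MG IP, had 4 RD and 4 ND libraries, in which 2663 genes rose (17.4%) and 2480 fell (16.2%) of 15342. The test of the difference between the 2 astrocyte pulldowns called 1 gene higher in the n_ZFP_a_Rpl IP (0.00641%) and 0 lower of 15594 by edgeR, where 1133 genes (7.27%) had an unadjusted p under 0.05, and DESeq2 called 9 and 4. The edgeR call is Pcdhga2, a clustered protocadherin whose last exons are shared with its neighbours. It had 30.3, 25.97 and 32.1 CPM in RD, against 14.3, 17.7, 15.3 and 19.1 CPM in ND and a difference of 0.95 ± 0.14 (SE, adjusted p = 0.0064). The count was 0 without RD replicate 1 and without RD replicate 3, at adjusted p of 0.069 and 0.11 for Pcdhga2, and 2 without RD replicate 2.

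Against the IP of the neuron set n_ZFP_n_Rpl, the change was higher for 986 genes (6.3%) and lower for 1263 (8.07%) of 15656. Cell type and set cannot be told apart there. Of the class found mainly in the astrocyte pulldown, 93 of 608 were higher and 16 lower. Of the reactivity list the change was higher for 18 and lower for 0 of 41 (median difference 1.4). In the neuron IP 29 of its 38 tested members fell and 0 rose (median -1.05), where 25.2% of all genes rose and 26.2% fell. The list is not one of genes found mainly in the astrocyte pulldown. In the NZ libraries 6 of the 41 were higher and 12 lower in the astrocyte IP than in the neuron IP (median -0.10). Vim changed by -0.60 ± 0.23 in the neuron IP and by 1.06 ± 0.18 in the astrocyte IP (difference 1.66 ± 0.30, adjusted p = 6.0e-04). Gpx8 likewise changed by -0.27 ± 0.26 in the neuron IP (difference 1.35 ± 0.28). Shisa2, a membrane protein of the endoplasmic reticulum, had 8.36, 6.69 and 7.68 CPM in RD, against 9.16, 7.85, 10.2 and 12.1 CPM in ND, and it was not called there, while its change in the neuron IP was -3.59 ± 0.25. The difference was 3.21 ± 0.32 (SE, adjusted p = 3.7e-07). Dhrs3, a retinaldehyde reductase, changed by -0.74 ± 0.18 and -3.11 ± 0.14 in the astrocyte and the neuron IP. The activity-induced factors Nr4a1 and Fosl2 fell in the neuron IP (-2.77 ± 0.23 and -1.92 ± 0.17) and were not called in the astrocyte IP (differences 2.40 ± 0.51 and 2.23 ± 0.36). The oncostatin M receptor Osmr differed by 2.10 ± 0.40, and Hspa5 by 0.53 ± 0.10. On the lower side stood Cd4, which fell by more here than in the neuron IP (-2.53 ± 0.20, difference -1.18 ± 0.29, adjusted p = 0.0073), Ramp2, a receptor-activity-modifying protein (1.46 ± 0.13 in the neuron IP, not called here), Samd14 (difference -1.32 ± 0.16), the lipid transporter Mfsd2a (-1.10 ± 0.14 here, 0.45 ± 0.38 there) and the sterol reductase Tm7sf2, a cholesterol synthesis enzyme (-0.50 ± 0.11 here, 0.68 ± 0.11 there). Tm7sf2 does not stand for its list. Of the 20 cholesterol synthesis enzymes 11 fell and 4 rose in the neuron IP (median -0.38), beside 26.2% and 25.2% of all genes. The difference between the 2 changes was called lower for 4 of the 20 and higher for 1.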

How the data were processed

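RNA-seq libraries were made from RiboTag immunoprecipitates and Inputs with a TruSeq kit, per the labels' protocols. Reads were processed by the authors with STAR and HTSeq on mm10, per the submitters' processing notes; their versions and the counting options, strand included, are not given in sources used here, so overlapping, antisense and near-identical genes share uncertain reads. The deposited values are raw counts per gene and library. Of 24060 rows, 4 with repeated symbols were left out; 22600 of the 24056 symbols used matched a current RefSeq symbol, and 23901 with synonyms.

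Counts were fitted with edgeR 4.0.16 in R 4.3.3 (limma 3.58.1): filterByExpr with a minimum count of 10 and total of 15, TMM factors, and its robust quasi-likelihood test, with p-values adjusted by Benjamini-Hochberg over all genes and called under 0.05. The fit held the 15 n_ZFP_a_Rpl IP libraries of 4 conditions, RD and ND with Delta and RZ and NZ with the ZFP. Differences between changes were interactions in joint fits with the Input, the MG IP or the n_ZFP_n_Rpl IP. Printed errors are the SE, the size of the log2 change divided by the square root of the test's F statistic. Counts per IP library ran from 42926495 to 50349867. No 2 libraries of a group agreed within sampling noise.

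Named genes follow 1 rule: the 12 highest and lowest calls with at least 5 CPM and no overlap, up to 4 calls per list and direction, any member of astrocyte function lists, the 8 highest and lowest differences and smallest p-values, the 10 highest and lowest of the class high in the IP, Htt and Rpl22. Outside the lists, provisional symbols (Gm, Rik, -ps, AW, BC, LOC) and sex-linked genes were passed over. Members and lists were chosen with earlier results of these data known. IP and Input libraries of 1 condition and number deviated together in all 15 pairs (r from 0.296 to 0.500), which pairs them. Alternatives were RLE factors, DESeq2 1.42.0, no filter, only RD and ND libraries, the replicate block, each replicate left out, and a log2 minimum of 2 for the classes. The scripts' fits were tested on simulated data. The mutant HTT transgene was not analysed here, so it gave no check of the genotype labels. Some genes of the lists are counted but not reported here by name.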

Additional observations from a re-analysis of the deposited data

Results flagged for a closer look

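Of the 150 genes named for the IP, 8 had an ND library far from the other 3 by Dixon's criterion, where chance alone flags about 1 in 20 groups. These were Sfmbt2 at 4.76 CPM and Insig1 at 65.7 CPM in ND replicate 1, each the lowest of the 4, and Mmp14 at 17.9 CPM, the highest, and Tcf7 at 2.56 CPM, the lowest, in ND replicate 2. In ND replicate 3 Kcnj4 was lowest at 171.8 CPM and Hmox1 highest at 16.4 CPM, and in ND replicate 4 Acadm was lowest at 58.2 CPM and Bcan lowest at 535.2 CPM. The RD libraries did not overlap with any of these ND values, and leaving out each ND library kept the 8 calls.

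The disease change differed between the IP and the Input by a test of the difference itself for 219 genes that were higher in the IP and 84 that were lower. These counts are from the fit without pairing, and with each IP paired to its Input they were 647 and 286. Trank1 led the first at a difference of 1.51 on the log2 scale, with Cp at 1.39, Abcg2 at 1.14, Enpp6 at 1.06, Flna at 1.02, Gli3 at 0.85 and Slc4a4 at 0.49. Camk2n2 at -0.97, Ggact at -0.84 and Crabp1 at -0.74 stood on the other side.

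Between the astrocyte IP and the neuron IP the change differed for 986 genes that were higher in the astrocyte IP and 1263 that were lower. Shisa2 differed by 3.21, Nr4a1 by 2.40, Dhrs3 by 2.37, Fosl2 by 2.23, Osmr by 2.10, Vim by 1.66, Gpx8 by 1.35 and Hspa5 by 0.53 on the log2 scale. Mfsd2a at -1.55, Ramp2 at -1.41, Samd14 at -1.32, Tm7sf2 at -1.19 and Cd4 at -1.18 were lower. Against the MG IP, edgeR called 1 gene higher, Pcdhga2 at 0.95, and 0 lower.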

How the results depend on the processing

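The counts of genes that rose and fell in the IP, in the Input and between ND IP and Input stayed within 1.5 times the reported ones under every alternative run. In the IP they were 2670 to 2954 that rose and 3348 to 3630 that fell with 1 library left out. RD and ND libraries of the same number did not deviate together in the IP (r from -0.058 to 0.075 over 3 pairs), so the numbers do not pair them; with the replicate block 3032 rose and 3678 fell. Of the 136 named genes past the threshold, 135 kept their call in each setting. Many were named for their size or p-value in these same libraries, so this share does not stand for all calls. Over all calls, 2520 of 3141 rises and 3215 of 3766 falls were kept without RD replicate 1, the fewest of any setting. Genes with a higher change in the IP than in the Input numbered 84 with only the RD and ND libraries and 647 with the replicate block, and those with a lower change 178 by DESeq2, 286 with the block and 42 to 80 with 1 library left out. Against the MG IP, DESeq2 called 9 higher and 4 lower, only the RD and ND libraries 1 lower, and leaving out 1 library 0 to 2 higher. Against the neuron IP, 811 were lower with only the RD and ND libraries. At a log2 minimum of 2, 22 genes were high in the IP against the Input (2 rose, 5 fell), 331 against the neuron IP (32 rose, 95 fell) and 6 against both (0 rose, 3 fell). Genes not called changed sign: with 1 library left out, Aqp4 ran from -0.085 to 0.0182, Sox9 from -0.0845 to 0.0736, Gfap from -0.1769 to 0.1111 and H2-D1 from -0.6993 to 0.9844 on the log2 scale; Gfap was 0.001 with the replicate block. The cause of these shifts was not tested. The 3 RD libraries limit the precision of every change.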
